A study of Homo sapiens with 4 samples.

Results

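The comparison described here sets the mock array of HML58-3 cells against the arrays of the same cells treated with DAC, OR-2003 or OR-2100, and asks which genes move away from mock in 1 direction with each of the drugs, downward as well as upward. It uses 4 of the 4 expression arrays of the series. HML58-3 derives from the colon cancer line HCT116 and was engineered to express luciferase from a promoter that is silenced by methylation, so the mock cells carry this reporter as well. The study describes the reporter's promoter as an exogenous UCHL1 promoter. Each of the 3 drugs was given at 1 μM on day 1, RNA was taken on day 5, and every condition is 1 one-colour array. DAC is decitabine. OR-2003 and OR-2100 are prodrugs of it that carry a trialkylsilyl group on the 5′ oxygen of the sugar. A gene was counted as raised when it was at least 2-fold above mock with each drug and reached a log2 level of -1 or more as the mean of the drugs, on a scale where the 75th percentile of each array is 0. A gene was counted as lowered when it was at least 2-fold below mock with each drug and stood at -1 or more on the mock array. A gene below -1 on mock could therefore be counted as raised but not as lowered. Of 25006 named genes, 1362 were raised (5.45% of all) and 1304 were lowered (5.21%). Counts in a list of genes are best read beside these shares.

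Decitabine is a cytosine analogue that is built into DNA as cells replicate and traps DNA methyltransferases there. The methylation of the daughter strands is then not restored, and genes that had been silent under a methylated promoter can be transcribed. Germline genes, imprinted genes and repeats are the classes best known to be kept silent in this way, and double-stranded RNA from repeats can set off the interferon response.

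With 1 array a condition there was no replicate of mock, so no p-value is given, and a difference from mock cannot be told apart from a difference between dishes. The precision is limited by the number of arrays. The spread over the 3 drugs is the only one between dishes, and its median SD was 0.0857 on the log2 scale over the 15977 genes that were well above background on all 4 arrays. The median size of the difference from mock over the same genes was 0.46. Their median difference was not 0 but -0.19, and it ran from -0.33 to 0.02 under the other scalings, so differences are best read against it. Among these 15977 genes, 943 were raised (5.9%) and 1302 were lowered (8.15%). No gene moved 2-fold or more in opposite directions with different drugs. The spike-in slope that the scanner software reports was 0.899 on the mock array, outside its range, and from 0.913 to 0.955 and within range on the others. All 4 arrays lay on 1 slide. The colon epithelium markers fit the label in part: KRT8, KRT18, KRT19, CDX2, EPCAM and CDH1 were well above background on all arrays, and VIL1 was not on mock.

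Rises were larger than falls. The raised genes measured on all 4 arrays had a median difference of 1.84 on the log2 scale, and the lowered ones of -1.41. A log2 difference of 4 or more was reached by 115 raised and 4 lowered genes. Of the raised genes, 419 did not stand well above background on mock by the probe used for the gene, and for these a fold is a lower bound. It sets the mean of the drugs against the higher of the gene's own mock signal and the dimmest signal well above background on mock, a log2 level of -4.29. These bounds hold on this scale only, and they are not the smallest changes under other background corrections. With normexp background correction XAGE1A, UCHL1, TDRD12 and H1-5 had log2 differences of 9.10, 8.10, 2.96 and 1.16, smaller than their bounds. The same held for other genes given below with a bound. Among them CDH2, KRT17, OAS1, PSMB8, TNF and PNMA6E stood at 1.49, 1.53, 1.12, 1.44, 2.65 and 8.09. Of the lowered genes, 1 was not well above background with any drug, LURAP1L, which was at least 20.7-fold lower.

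**Figure D1:**
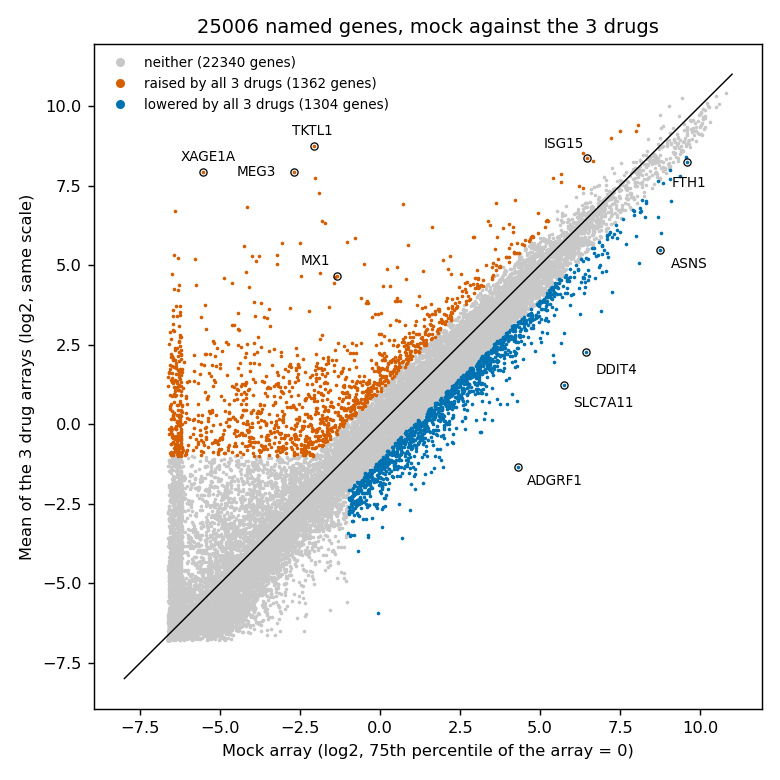
Level of each of 25006 named genes on the mock array (horizontal, log2 with the 75th percentile at 0) against the mean of the 3 drug arrays (vertical, same scale). Each point is 1 gene, the line marks equal levels, 1362 raised genes are orange and 1304 lowered genes blue. Raised genes reach far from the line at the dim end and lowered genes form a band close to it, with ADGRF1, SLC7A11 and DDIT4 the farthest of those labelled.

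The largest falls among named genes measured on all arrays were led by ADGRF1, an adhesion G protein-coupled receptor, which stood at a log2 level of 4.30 on mock and at -1.21 (DAC), -1.14 (OR-2003) and -1.71 (OR-2100), a 50.5-fold fall. Next was SLC7A11, the cystine transporter of the plasma membrane, at 5.74 on mock and 1.23, 1.18 and 1.26 with the drugs, 22.8-fold lower. In both genes the drug arrays lay together and far below mock. ANXA10, an annexin of stomach epithelium, had a level of 0.67 on mock and -3.27, -3.58 and -3.93 with the drugs, 19.2-fold lower. With normexp background correction its log2 difference shrank from -4.27 to -2.19. DDIT4, an inhibitor of the growth kinase complex mTORC1, stood at 6.44 on mock and at 2.27, 2.28 and 2.21 with the drugs, 18.2-fold lower. The other 11 of the 15 largest falls had log2 differences from -3.63 to -3.26. With normexp PRDM16 and GLDN shrank to -2.06 and -1.70. The 11 were PRDM16, NIBAN1, PHGDH, KCNQ1, WNT16, PCK2, the pseudogene ASNSP1, RAB26, GLDN, TFPI and ASNS. SLC7A11, DDIT4, PHGDH, PCK2 and ASNS also belong to the stress response list described next.

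The integrated stress response and amino acid supply genes were the list with the largest share lowered. The integrated stress response is the programme that cells start through the transcription factor ATF4 when amino acids run short or proteins fold badly, and its targets make, import and charge amino acids. Of 48 genes on the array, 34 were lowered (70.8%) and 2 were raised, against 5.21% and 5.45% of all genes. Over the 47 measured on all arrays the median log2 difference was -1.46, with 43 below mock and 4 above. Under the scalings tried the median stayed between -1.60 and -1.22, and the count of lowered genes between 29 and 38.

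ATF4 itself stood at 9.36 on mock and at 7.83, 7.85 and 7.72 with the drugs in the same order, a log2 difference of -1.56. ASNS, which makes asparagine, was at 8.75 on mock and 5.59, 5.51 and 5.37 with the drugs, 9.61-fold lower. It has 3 probes, and those measured on all arrays differed by -3.26 to 0.51, so that the fall was not shared by all of them. PHGDH, which opens the synthesis of serine, fell from 5.43 to 2.03, 1.90 and 1.92, an 11.1-fold change. In each of these genes every drug array lay below mock by far more than the drug arrays lay apart. PSAT1 and PSPH, the later enzymes of that pathway, had log2 differences of -3.10 and -1.39. CHAC1, which breaks down glutathione, was at 5.66 on mock and at 2.40, 2.63 and 2.59 with the drugs. TRIB3, a pseudokinase that restrains ATF4 signalling, was at 8.08 on mock and at 5.17, 5.12 and 4.93. DDIT3, the stress transcription factor CHOP, was at 3.64 on mock and at 0.75, 0.81 and 0.80, 7.19-fold lower. The mitochondrial enzyme PCK2, which makes phosphoenolpyruvate, was 10.4-fold lower.

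The list was split by kind of gene after its values had been seen. Of 10 aminoacyl-tRNA synthetases, which load amino acids onto tRNA, 9 were lowered. AARS1 for alanine had the largest log2 difference of them, at -2.70. The tenth, WARS1, was 2-fold below mock in the mean, at -1.03, but not with each drug. Of 8 amino acid transporters 7 were lowered, among them SLC7A5 at -1.69 and its partner chain SLC3A2 at -1.70. Of 6 enzymes of serine and one-carbon metabolism 5 were lowered. Of 8 transcription factors 3 were lowered, namely ATF4, DDIT3 and CEBPG, and 1 was raised.

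The raised genes of the list were CBS and ATF3. CBS, which turns homocysteine into cystathionine, stood at -2.83 on mock and at 3.64, 3.57 and 3.70 with the drugs, an 88.0-fold rise. With normexp its log2 difference shrank to 4.40. ATF3, a stress-induced transcription factor, was at 4.75 on mock and at 5.89, 5.92 and 5.92, with 4 probes that differed from -0.50 to 1.16. Members that stood closer to mock were GDF15 at -0.99, CEBPB at -0.85, PPP1R15A at -0.40 and CTH at 0.02. The chaperone HSPA5, a marker of the unfolded protein response, was lowered, with a difference of -1.40.

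**Figure D2:**
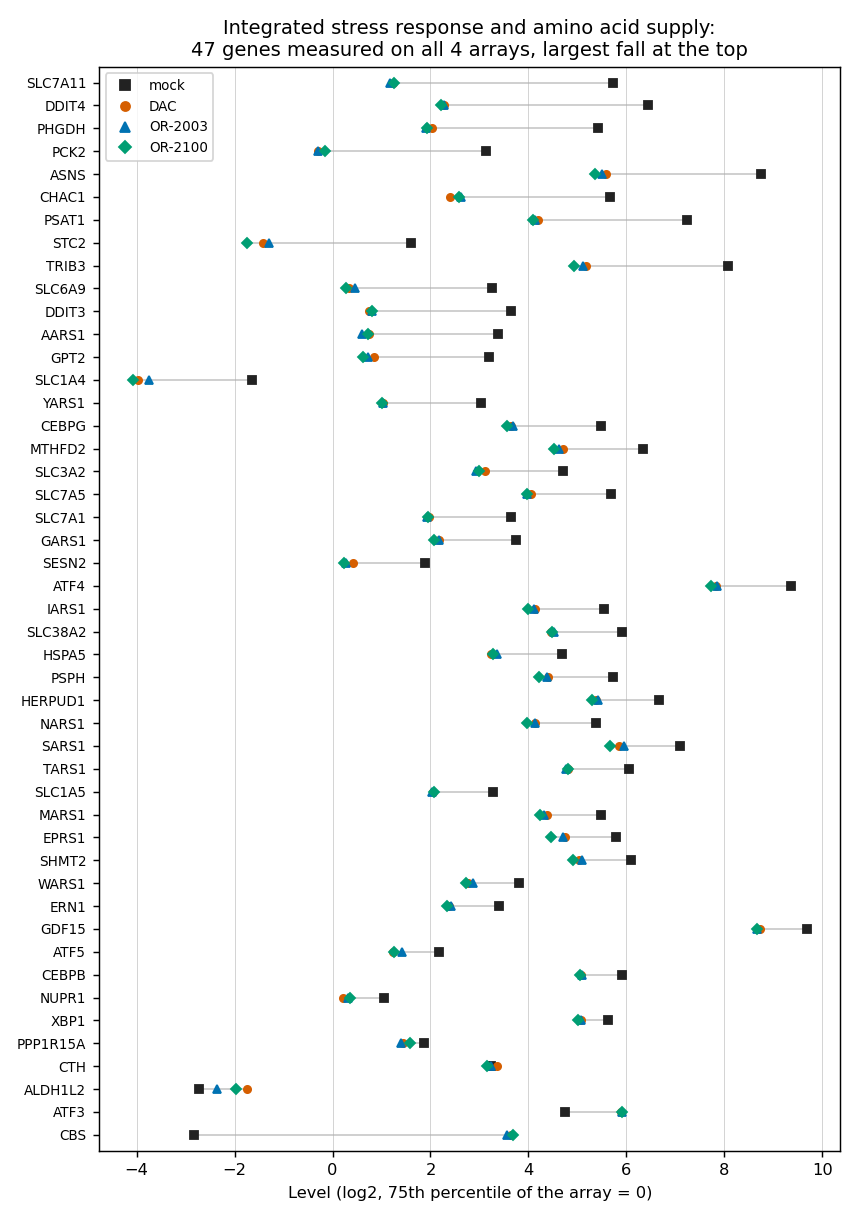
Level of the 47 integrated stress response and amino acid supply genes measured on all 4 arrays (horizontal, log2 with the 75th percentile at 0), 1 gene a row, ordered by the difference from mock. Black squares are mock, and circles, triangles and diamonds are DAC, OR-2003 and OR-2100. The drug symbols lie on top of each other and left of mock in all but a few genes at the foot, where CBS lies far to the right.

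ATF4 binds a composite element whose core was searched as TTGCATCA or its reverse TGATGCAA in the 300 bases from 250 before to 50 after each gene's annotated start, taken from RefSeq on GRCh38.p14. Of the lowered genes of the list, 29 had a promoter in that table and 7 held the element (24.1%). Of the list members that were not called, 0 of 10 held it. It was found in 0.786% of all 18713 promoters and in 1.95% of those of all lowered genes. The 7 genes were CHAC1, HERPUD1 and 5 synthetases, AARS1, MARS1, IARS1, NARS1 and TARS1. A match describes these letters and not a bound site, and the window leaves out elements farther away. The promoters of CHAC1 at chr15:40953221-40953520 and AARS1 at chr16:70289457-70289756, on the plus and the minus strand, are shown because they are the 2 of largest fall that hold the element, which is in capitals and starts at -209 and -187 from the annotated start.
CHAC1: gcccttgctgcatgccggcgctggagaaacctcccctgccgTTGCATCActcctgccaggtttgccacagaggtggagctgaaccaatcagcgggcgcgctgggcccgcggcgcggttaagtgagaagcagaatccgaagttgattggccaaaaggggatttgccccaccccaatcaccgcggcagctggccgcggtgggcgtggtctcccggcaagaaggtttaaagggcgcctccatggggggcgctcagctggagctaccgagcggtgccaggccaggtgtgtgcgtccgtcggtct
AARS1: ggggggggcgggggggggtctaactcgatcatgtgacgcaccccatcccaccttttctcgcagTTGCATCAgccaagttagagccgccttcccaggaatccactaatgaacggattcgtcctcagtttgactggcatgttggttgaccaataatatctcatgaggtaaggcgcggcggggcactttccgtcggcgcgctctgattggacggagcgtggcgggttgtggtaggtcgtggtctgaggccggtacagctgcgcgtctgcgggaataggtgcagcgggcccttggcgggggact

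Other metabolic and stress lists moved less. Of 30 targets of NRF2, the regulator of antioxidant genes, 6 were lowered and 1 was raised, and the median log2 difference was -0.33. SLC7A11 stands in this list too. The organic anion exporter ABCC2 was at 3.25 on mock and 0.07, 0.17 and 0.26 with the drugs, 8.45-fold lower. The quinone reductase NQO1 was 4.02-fold lower, at 1.81 on mock and -0.08, -0.29 and -0.24 with the drugs. FTH1, the heavy chain of the iron store ferritin, was at 9.58 on mock and 8.25, 8.31 and 8.15. The raised member was the carbonyl reductase CBR1, at least 85.8-fold higher. Of 20 heat shock proteins 2 were raised, HSPA1A by at least 506-fold and DNAJA1 by 2.43-fold, and 0 were lowered.

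Of 33 cholesterol and fatty acid synthesis genes 3 were raised and 4 were lowered. Among the raised ones STARD4 and HMGCS1 had log2 differences of 1.80 and 1.33, and among the lowered ones TM7SF2, SREBF1 and PMVK of -1.99, -1.32 and -1.08. PMVK stood at -0.96 with normexp. Among 23 glycolysis genes the glucose transporters SLC2A3 and SLC2A1 were raised, by 15.8-fold and 2.24-fold, and PFKM was 2.20-fold lower. With normexp the log2 difference of SLC2A3 was 1.90 in place of 3.98, and with the percentile of bright probes that of PFKM was -0.93. Of 24 hypoxia response genes EGLN1 was raised, and VEGFA and MXI1 were lowered, with VEGFA at 2.91 on mock and 1.03, 1.03 and 1.02 with the drugs. Of 40 membrane transporters 6 were lowered (15%) and 1 was raised (2.5%), beside 5.21% and 5.45% of all named genes. SLC67A1 was 3.31-fold lower, the glutamate carrier SLC1A1 3.09-fold, the amino acid carrier SLC43A1 2.37-fold and the folate carrier SLC46A1 2.36-fold, and the zinc exporter SLC30A1 was 2.22-fold higher. With normexp SLC43A1 and SLC30A1 stood at -0.94 and 0.83, short of a call. Of 38 lysosome and autophagy genes MAP1LC3A and SMPD1 were raised and GAA and CTSH were lowered. With normexp SMPD1 stood at 1.24 in place of 2.20 and CTSH at -0.90. Neither of 2 large housekeeping machines had a called gene. Of 40 mitochondrial respiration genes and of 30 proteasome genes, 0 were raised and 0 were lowered. ATP5F1C and PSMA2, the members nearest to the 2 medians, had log2 differences of -0.21 and 0.17.

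Genes of the ribosome itself lay below mock as a group, by less than 2-fold for most. All 39 cytosolic ribosomal protein genes were below mock, with log2 differences from -2.23 to -0.33 and a median of -0.62, and 3 of them were lowered. Across the scalings the median ran from -0.77 to -0.21. Their probes were bright, with a median level of 9.47 on mock. All named genes at 5 or more on mock had a median difference of -0.31. RPL22 stood at 7.05 on mock and at 4.93, 4.84 and 4.67 with the drugs, 4.69-fold lower. RPL3 was at 9.56 on mock and 8.45, 8.39 and 8.31, and RPS3 was 2.28-fold lower. Of 37 MYC and ribosome biogenesis genes 1 was lowered, NOB1, which cuts the small subunit RNA, by 2.43-fold. The median of that list was -0.20, near the -0.19 of all genes measured on all arrays, and its sign changed under 2 scalings. Of 40 splicing factors HNRNPA1 and SRSF1 were lowered, by 2.55-fold and 2.18-fold, and SRSF1 stood at -0.87 with normexp. The 10 lowered genes with the brightest probes on mock were FTH1, RPL3, ATF4, H4C3, MT1E, EEF1G, GAS5, ADIRF, ASNS and RPS15A. ADIRF, a gene of fat cell differentiation, had the second largest log2 difference of them at -2.78. With quantile normalization 4 of these 10 were still lowered, and FTH1 and RPL3 had differences of -0.86 and -0.72.

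The mitosis, replication and nucleotide synthesis lists showed few calls, all downward. Of 66 mitosis genes 5 were lowered (7.58%, beside 8.15% of all genes measured on all arrays) and 0 were raised, with a median log2 difference of -0.42 and 55 of 66 below mock. Among all genes measured on all arrays, 9965 of 15977 lay below mock. The kinesin KIF18A, which shortens spindle microtubules, was at 1.65 on mock and 0.04, -0.06 and 0.01 with the drugs. The phosphatase CDC25B was at 4.86 on mock and 3.39, 3.33 and 3.29. The kinesin KIF15, the condensin subunit NCAPG and the checkpoint protein BUB3 had differences of -1.50, -1.30 and -1.14, and with normexp that of NCAPG was -0.76, short of a call. Of 47 DNA replication genes POLA1 was lowered, by 2.10-fold, and of 31 nucleotide synthesis genes PAICS, by 2.23-fold, with a log2 difference of -0.95 under the percentile of bright probes. POLA1 was no longer lowered with normexp or quantile normalization, or with the percentile of bright probes, and 0 replication genes were then called. The mitosis and replication medians stayed below 0 under the scalings tried, but 0 is not the level of all genes. The replication median was -0.28, near the -0.19 of all genes measured on all arrays.

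Of 27 cyclins, kinases and inhibitors of G1, CDK6, CDKN2D and CDKN1A were raised and CDK4 was lowered. CDKN1A, the p21 inhibitor that p53 turns on, stood at 0.17 on mock and at 1.43, 1.36 and 1.39 with the drugs, 2.33-fold higher. CDK4 and CDK6, the paired kinases of G1, went opposite ways: CDK6 was 2.74-fold higher and CDK4 was 2.38-fold lower. Of 41 p53 targets 4 were raised and 4 were lowered, shares of 9.76% each. Among all genes measured on all arrays 5.9% were raised and 8.15% were lowered, so the lowered share lay near that of all genes. The raised ones were TNFRSF10C, PLK2, TIGAR and CDKN1A, with log2 differences from 1.22 to 1.68. With normexp TIGAR stood at 0.99. The lowered ones were LIF, SESN2, BBC3 and CYFIP2, and SESN2 is also a target of ATF4. In the BCL2 family of cell death regulators BAK1 was 2.58-fold higher and BBC3 2.54-fold lower, of 19 genes. Of 38 DNA repair genes 0 were raised and 2 were lowered (5.26%, beside 8.15% of all genes measured on all arrays). Among the 2 was MGMT, which removes alkyl groups from guanine, 2.15-fold lower. With the percentile of bright probes its log2 difference was -0.90. Its silencing by methylation is known in colon cancer, and it was measured on the mock array.

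Histone genes split by type. These proteins package DNA, and the array has 54 of their genes, which lie in near-identical copies, so the value of a single copy is uncertain. Of the 54, 11 were raised (20.4%) and 15 were lowered (27.8%). By type, a split made after the values were seen, 7 of 11 H4 genes and 3 of 10 H3 genes were lowered with 0 raised, while 6 of 15 H2B genes were raised and 1 was lowered. Of 7 linker histones 4 were raised and 1 was lowered. H4C3 stood at 9.09 on mock and between 6.87 and 7.16 with the drugs. H2AC20 was 5.80-fold lower, H4C4 5.50-fold, H4C2 4.85-fold and H2BC7 4.66-fold. Linker histone H1-2 was at 5.64 on mock and at 7.60, 7.69 and 7.52, H1-1 was 37.8-fold higher, and H2BC12 was 4.64-fold higher. With normexp the log2 difference of H1-1 was 2.69 in place of 5.24, and that of H2BC7 -1.15 in place of -2.22. H1-5 was at least 10.7-fold higher.

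The machinery of methylation and silencing held few calls. DNMT1, whose protein decitabine traps, stood at 3.98 on mock and at 3.68, 3.80 and 3.60 with the drugs, a log2 difference of -0.29 that was near the median of all genes. Of 21 genes of the list MBD1, a reader of methylated DNA, was 3.51-fold higher and MAT2A, which makes the methyl donor, was 2.48-fold lower. The 3 probes of MBD1 differed by 0.54 to 1.81. Of 32 polycomb and heterochromatin genes CBX5 and CBX6 were lowered, by 3.15-fold and 2.14-fold, and 0 were raised. The lowered share of 6.25% was below the 8.15% of all genes measured on all arrays. The 2 probes of CBX5 differed by -1.65 and -0.02, and CBX6 stood at -0.96 with normexp. Of 17 housekeeping genes 0 were called, with GAPDH at 8.34 on mock and 7.77, 7.73 and 7.65 with the drugs, and ACTB at 9.17 on mock and 9.37, 9.37 and 9.19. The log2 differences were -0.62 and 0.14, and that of ACTB was -0.0003 with median scaling. The member nearest to the list median was TUBB, at -0.22, with 3 probes from -0.22 to 0.69 and a value of 0.74 with normexp.

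**Figure D3:**
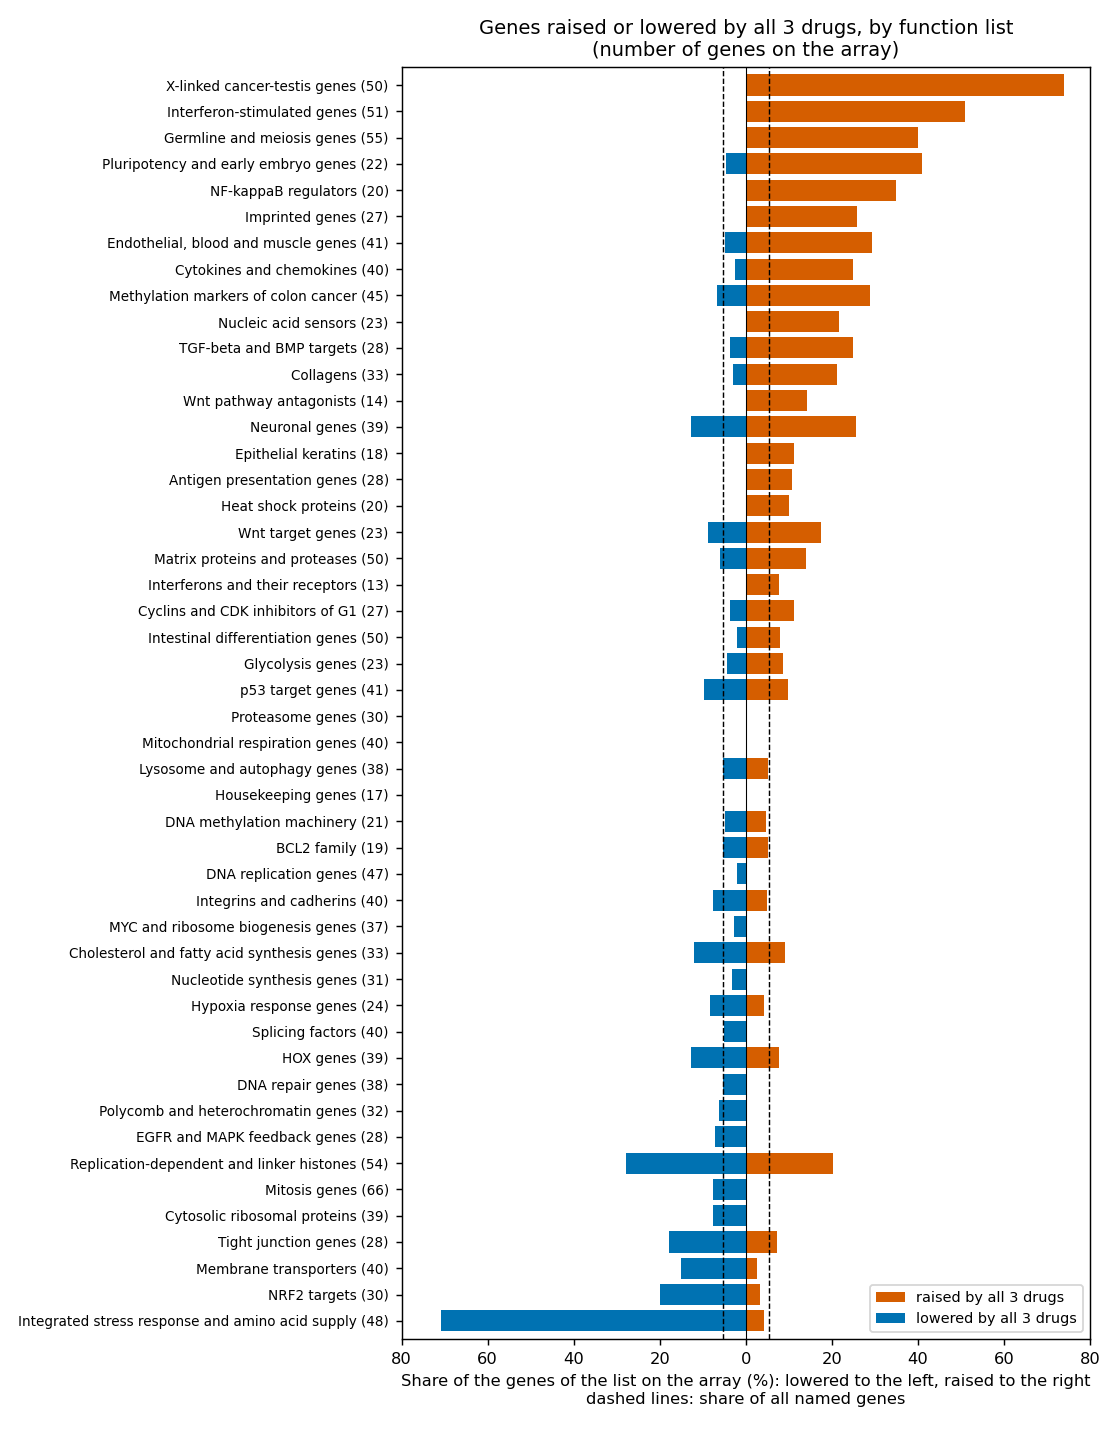
Share of the genes of each of 48 function lists that were raised (orange, to the right) or lowered (blue, to the left) by all 3 drugs, in percent of the genes of the list on the array, whose number is in parentheses. Dashed lines mark the shares over all named genes, 5.45% and 5.21%. The stress response list lies farthest to the left at 70.8% and the cancer-testis list farthest to the right at 74%.

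On the side of the rises, germline genes came first. Cancer-testis genes are X-linked families that adult tissues express mainly in the testis, and tumors often express them. Of 50 on the array 37 were raised (74%) and 0 were lowered, and 24 of the 50 were above background with the drugs but not on mock. The median level of the 50 on mock was -4.23, below the -1 that a lowered gene needs. Over the 23 measured on all arrays the median log2 difference was 3.61. Many of these genes have near-identical relatives whose signal a probe may share, and a single value is then uncertain. TKTL1, a transketolase-like gene, stood at -2.08 on mock and at 8.77, 8.78 and 8.67 with the drugs, 1806-fold higher. FMR1NB, at 5.25, 5.30 and 5.27 with the drugs, was 621-fold above mock. XAGE1A was at least 4741-fold higher, CT45A1 932-fold, RHOXF2 774-fold and MAGEA9 473-fold, as bounds on the scale used here. The 15 largest rises of named genes measured on all arrays also held CTAG1A, CT45A5, CT47A11, CTAG2, PAGE2, PAGE2B and VCX2 of the X chromosome, and ICAM2, LY6K, KRTAP3-1, PRR20G and SOHLH1 of other chromosomes, with log2 differences from 7.54 to 9.78. CT47A11 has 2 probes that differed by 0.20 and 8.99, and ICAM2 stood at 4.97 with normexp in place of 7.77. CT45A5, CT47A11, CTAG2 and SOHLH1 stood at 6.65, 6.28, 6.30 and 5.20 with normexp, in place of 9.09, 8.99, 8.53 and 7.54.

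Germline and meiosis genes act in piRNA silencing and in the pairing of chromosomes. Of 55 on the array 22 were raised (40%) and 0 were lowered. The median level of the 55 on mock was -4.86, where a gene cannot be counted as lowered. MAEL, a piRNA pathway gene, stood at -6.60 on mock, at background, and at 2.50, 2.45 and 2.61 with the drugs, at least 112-fold higher. The RNA-binding protein DAZL was at least 64.6-fold higher, DPPA2 89.7-fold and TDRD12 60.9-fold. The germ cell markers DDX4, DAZL and SYCP3 were all raised and none was above background on mock. Their summed log2 level went from -2.90 on mock to between 2.85 and 3.06 with the drugs. Of 22 pluripotency and early embryo genes 9 were raised and 1 was lowered. ZFP42, LIN28B, TRIM43 and KHDC3L were at least 513, 408, 260 and 149-fold higher. NANOG, a core pluripotency factor with close pseudogene copies, went the other way, from -0.68 on mock to -4.12, -3.90 and -3.90. With normexp its log2 difference was -1.29 in place of -3.29.

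Imprinted genes, which are expressed from 1 parental allele, had 7 raised of 27 and 0 lowered. MEG3, a long noncoding RNA of chromosome 14, stood at -2.68 on mock and at 7.71, 7.89 and 8.15 with the drugs, 1552-fold higher, and its probes measured on all arrays differed by 4.36 to 10.60. Its neighbour MEG8 was at least 345-fold higher. H19 was at -3.46 on mock and at 3.81, 3.51 and 3.56, 137-fold higher, and NDN was at least 17.4-fold higher. With normexp the log2 difference of H19 shrank to 4.81. Of 45 genes on the list of methylation markers of colon cancer 13 were raised (28.9%) and 3 were lowered. UCHL1, a deubiquitinase of neurons, was at -6.42 on mock and at 6.61, 6.77 and 6.69, at least 2011-fold higher. VIM, the filament protein of mesenchymal cells, was at 0.71 on mock and at 6.98, 6.84 and 6.92. SFRP1, a secreted antagonist of Wnt, was at -3.82 on mock and at -0.59, -0.71 and -0.43, 9.46-fold higher, with a log2 difference of 1.21 with normexp in place of 3.24. OSR2 stood within 2-fold of mock, with a difference of 0.48. GATA5 and FBN2 were at least 18.3 and 17.6-fold higher. CRABP1 was raised, and its probe that was measured on all arrays differed by 2.99, and the lowered members included CDH1 and MGMT.

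The promoter of UCHL1 at chr4:41256678-41256977, on the plus strand, is shown as that of a raised gene not above background on mock, beside those of the raised gene with the brightest probe with the drugs that had an entry, LEPR at chr1:65420402-65420701 on the plus strand, and of the lowered gene with the brightest probe on mock, RPL3 at chr22:39319574-39319873 on the minus strand. They are RefSeq sequences of GRCh38.p14 with each CG dinucleotide in capitals. UCHL1 held 25 CG, LEPR 32 and RPL3 32.
UCHL1: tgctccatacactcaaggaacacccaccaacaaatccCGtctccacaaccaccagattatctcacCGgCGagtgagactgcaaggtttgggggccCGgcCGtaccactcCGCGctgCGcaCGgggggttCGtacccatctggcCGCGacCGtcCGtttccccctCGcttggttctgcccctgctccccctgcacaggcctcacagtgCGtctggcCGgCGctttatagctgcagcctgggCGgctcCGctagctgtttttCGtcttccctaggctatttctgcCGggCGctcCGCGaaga
LEPR: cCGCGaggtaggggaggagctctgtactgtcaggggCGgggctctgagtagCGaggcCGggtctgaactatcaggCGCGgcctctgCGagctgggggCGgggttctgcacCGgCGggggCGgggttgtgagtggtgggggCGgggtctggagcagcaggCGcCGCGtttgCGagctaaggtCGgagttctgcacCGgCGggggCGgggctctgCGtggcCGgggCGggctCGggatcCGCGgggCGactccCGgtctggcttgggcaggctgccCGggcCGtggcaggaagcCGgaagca
RPL3: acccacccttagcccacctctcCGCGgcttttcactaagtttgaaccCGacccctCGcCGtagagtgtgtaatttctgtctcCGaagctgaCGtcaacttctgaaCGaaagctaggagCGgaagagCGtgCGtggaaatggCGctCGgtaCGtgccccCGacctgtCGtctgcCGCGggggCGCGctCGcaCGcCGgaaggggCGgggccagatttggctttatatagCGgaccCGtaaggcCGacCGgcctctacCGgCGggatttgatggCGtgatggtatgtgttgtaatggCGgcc

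Raised and lowered genes differed in CpG content. The observed over expected ratio of CpG in the 300 bases had a median of 0.66 over 957 raised genes and 0.81 over 1028 lowered genes. Genes measured on all arrays and called neither way had 0.82, and genes not above background on any array had 0.26. The quartiles of the raised genes ran from 0.35 to 0.85 and those of the lowered genes from 0.62 to 0.93. Promoters with a ratio of 0.6 or more made up 58.0% of the raised and 76.6% of the lowered genes. The share was 59.9% of all named genes with a promoter, whose median was 0.725, and 76.5% of the measured genes called neither way. Raised genes measured on all arrays had a median of 0.68. A lowered gene had to stand at -1 or more on mock and a raised one did not, and the part of this rule was not tested. Raised germline and meiosis genes had a median of 0.79 and raised cancer-testis genes of 0.39. This is a description over genes, with no test, and the methylation of these promoters was not analysed here.

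**Figure D4:**
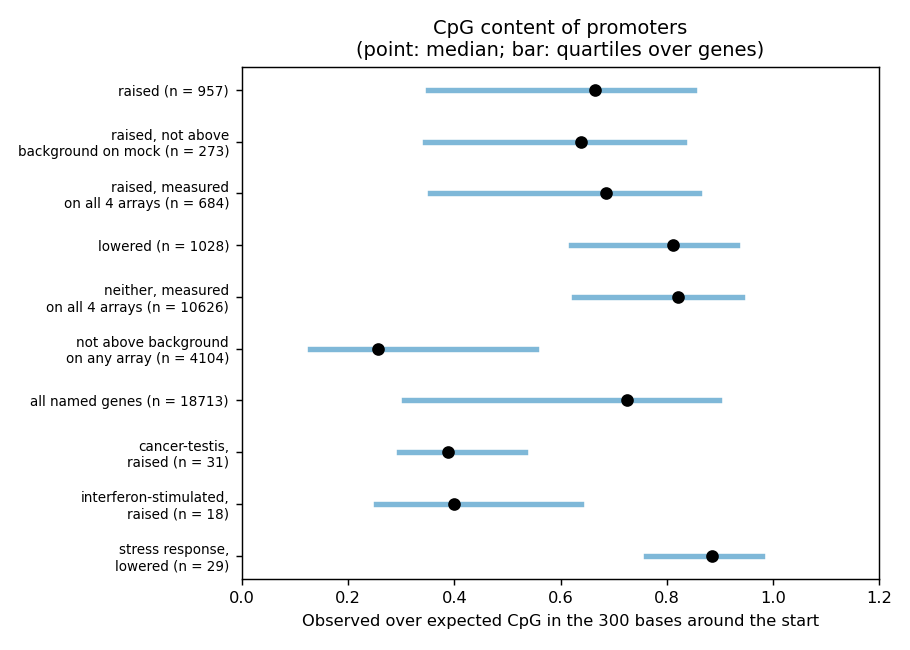
Observed over expected CpG (horizontal, a ratio with no unit) in the 300 bases around the start of genes, with n the number of genes with a promoter in the table. Points are medians and bars run from the lower to the upper quartile over genes. Lowered genes lie with the genes called neither way, and raised genes spread to lower ratios.

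By chromosome, the share of raised genes was highest on X at 11.8%, on 19 at 10.5% and on 14 at 8.05%, and lay between 2.77% and 6.68% on the others. The share of lowered genes lay between 3.88% and 6.58% on all chromosomes. Of 106 raised genes on X, 37 were in the cancer-testis list and 69 were outside it. The 69 include CTAG1A and CT47A11, named above with the cancer-testis genes, so the list does not hold all genes of this kind. Of 509 genes with ZNF symbols, which code for zinc finger proteins, 43 were raised (8.45%) and 23 were lowered (4.52%).

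Interferon-stimulated genes were the second list by share raised. These are the genes that cells turn on when interferon or foreign RNA is sensed. Of 51 on the array 26 were raised (51.0%) and 0 were lowered, and over the 43 measured on all arrays the median log2 difference was 1.24. MX1, an antiviral GTPase, stood at -1.35 on mock and at 4.63, 4.45 and 4.89 with the drugs, 64.5-fold higher. ISG15, a ubiquitin-like modifier, was at 6.45 on mock and at 8.34, 8.30 and 8.41, 3.74-fold higher. IFI44 was 11.9-fold higher, and XAF1, MX2 and OAS1 were at least 30.1, 25.5 and 10.3-fold higher. The transcription factor IRF7 had a difference of 2.07. In MX1, ISG15 and IFI44 the drug arrays lay within 0.6 of each other and all above mock.

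The interferon-stimulated response element, searched on both strands as GAAA, NN and GAAA in a row, lay in the promoters of 13 of 18 raised genes of this list (72.2%). It also lay in 13 of 21 members that were not called (61.9%), and in 3.25% of all promoters. The promoters of MX1 at chr21:41420308-41420607 and ISG15 at chr1:1013247-1013546, both on the plus strand, are shown for the element, which is in capitals. It starts at 11 from the annotated start in MX1. In ISG15 the capitals hold 2 overlapping matches, and the first starts at -113.
MX1: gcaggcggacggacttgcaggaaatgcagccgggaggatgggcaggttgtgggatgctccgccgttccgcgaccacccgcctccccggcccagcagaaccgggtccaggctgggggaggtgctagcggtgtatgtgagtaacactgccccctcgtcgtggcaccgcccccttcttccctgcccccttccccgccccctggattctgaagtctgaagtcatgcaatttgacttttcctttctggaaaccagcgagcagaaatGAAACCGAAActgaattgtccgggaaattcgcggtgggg
ISG15: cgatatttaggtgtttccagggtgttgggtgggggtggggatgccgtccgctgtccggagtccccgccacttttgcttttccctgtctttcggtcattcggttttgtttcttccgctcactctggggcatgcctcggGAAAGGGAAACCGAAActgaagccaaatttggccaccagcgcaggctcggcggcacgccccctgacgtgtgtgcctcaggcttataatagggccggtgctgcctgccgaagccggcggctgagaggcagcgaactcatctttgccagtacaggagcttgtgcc

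Of 23 sensors of nucleic acids 5 were raised and 0 were lowered. The RNA sensor IFIH1 was at 1.84 on mock and at 3.55, 3.35 and 3.77 with the drugs, and DHX58, its relative, was 7.35-fold higher. The DNA sensor CGAS and the inflammasome adaptor PYCARD were not above background on mock and stood between -0.01 and 0.33 with the drugs. Of 13 interferons and receptors IFNL2 was raised, from -1.73 on mock to 0.95, 1.04 and 1.30, and it has near-identical relatives. Of 28 antigen presentation genes 3 were raised: PSMB8 by at least 15.6-fold, HLA-DPB1 by 2.41-fold and the peptide transporter TAP1 by 2.25-fold. B2M, the light chain of class I molecules, stood within 2-fold of mock, at a log2 difference of 0.25.

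Of 40 cytokines and chemokines 10 were raised (25%) and 1 was lowered. The median level of the 40 on mock was -4.44, below the -1 that a lowered gene needs. CXCL1, which draws neutrophils, stood at 0.08 on mock and at 4.25, 4.18 and 4.57, 19.1-fold higher. CCL20, TNF and CSF3 were not above background on mock, and were at least 35.7, 44.9 and 15.6-fold higher. LIF, a cytokine of stem cells, was at 4.17 on mock and at 2.27, 2.12 and 2.48. Of 20 NF-kappaB regulators, the pathway that turns on such genes, 7 were raised (35%) and 0 were lowered. The feedback inhibitor TNFAIP3, the adhesion molecule ICAM1, the subunit RELB and the survival factor BIRC3 had log2 differences of 2.34, 2.32, 2.27 and 2.21. TNFAIP3 stood at 1.02 with normexp. RELB stood at 4.01 on mock and at 6.30, 6.21 and 6.33.

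**Figure D5:**
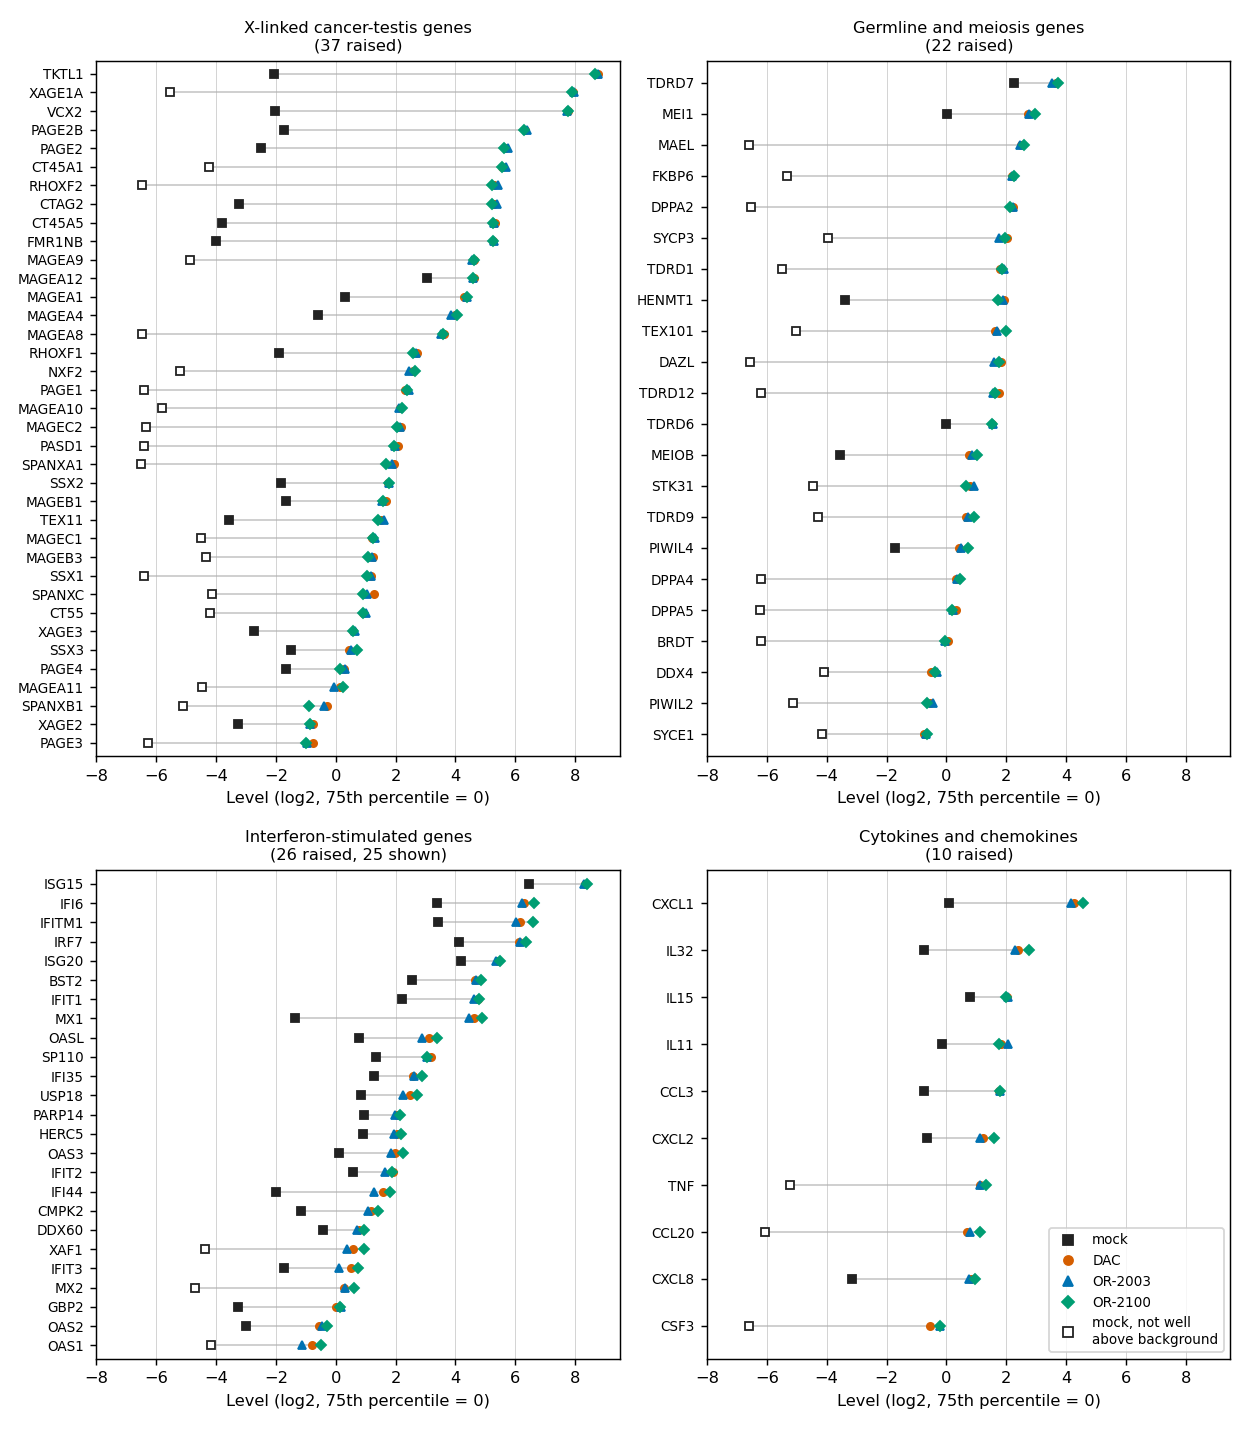
Level of raised genes of 4 lists (horizontal, log2 with the 75th percentile at 0), 1 gene a row, ordered by the mean of the drugs, with 1 interferon-stimulated gene not shown. Squares are mock, open where the gene was not well above background there, and circles, triangles and diamonds are DAC, OR-2003 and OR-2100. All mock squares lie left of the drug symbols, and open squares are common among cancer-testis and germline genes and fewer among interferon-stimulated genes.

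Genes of the epithelial state moved both ways. EPCAM, an adhesion molecule of epithelia, was lowered, at 6.81 on mock and 5.32, 5.29 and 5.36 with the drugs. E-cadherin, CDH1, was at 3.88 on mock and at 2.79, 2.70 and 2.63, 2.25-fold lower, and N-cadherin, CDH2, was at least 16.2-fold higher. Of 28 tight junction genes 5 were lowered and 2 were raised. TJP3 was 6.66-fold lower, CLDN2 3.58-fold and CLDN7 2.47-fold. CLDN4 stood at 7.99 on mock and at 5.86, 5.93 and 5.93. CLDN6 and CLDN11 were at least 39.7 and 13.1-fold higher. Of 40 integrins and cadherins ITGA3 and ITGB4, the laminin receptors of epithelia, were lowered by 2.92-fold and 2.47-fold beside CDH1, and CDH2 and L1CAM were raised. Their shares were 7.5% lowered and 5% raised, beside 5.21% and 5.45% of all named genes. Of 18 epithelial keratins KRT17 and KRT14, of basal cells, were raised and 0 were lowered. KRT17 was at least 18.6-fold higher, and KRT14 stood at 0.02, -0.02 and 0.12 with the drugs against -4.30, at background, on mock. With normexp L1CAM stood at 0.64, short of a call, and TJP3 at -1.43 in place of -2.73. The other colon epithelium markers measured on all arrays lay above mock, KRT8, KRT18, KRT19 and CDX2 by 0.55, 0.52, 0.34 and 0.23 on the log2 scale. The summed log2 level of the 7 markers was 10.35 on mock and from 10.63 to 10.72 with the drugs. In bulk RNA fewer cells of a type and less RNA per cell cannot be told apart.

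Of 33 collagens 7 were raised (21.2%) and 1 was lowered, COL4A5 by 2.32-fold. COL14A1 was at least 10.3-fold higher. COL8A2 has 2 probes, of which 1 was not above background on mock and the other, measured on all arrays, differed by 2.05. COL5A1 and COL16A1 were 4.92-fold and 3.70-fold higher. The 2 probes of COL16A1 differed by -0.25 and 1.89. Of 50 matrix proteins and proteases 7 were raised and 3 were lowered. SPARC stood at -3.09 on mock and at 2.29, 2.18 and 2.30, 40.8-fold higher, THBS2 was 31.3-fold higher, and NID1 was at least 29.4-fold higher. The proteases MMP7, PLAU and ADAM19 had differences of -2.02, -1.57 and -1.24. With normexp SPARC, THBS2, COL5A1 and MMP7 stood at 3.48, 2.37, 1.17 and -0.95.

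Of 28 TGF-beta and BMP targets 7 were raised (25%) and 1 was lowered. TGFBI and CCN2 were 32.7-fold and 32.2-fold higher, INHBB was 12.7-fold higher and NOG at least 14.7-fold, while ID1, a classic BMP target, was at 8.12 on mock and at 6.74, 6.90 and 6.69. Of 14 Wnt antagonists SFRP1 and DKK1 were raised, DKK1 by 3.85-fold. Of 23 Wnt targets LEF1, ASCL2, NKD1 and AXIN2 were raised, by at least 27.7-fold, at least 16.4-fold, 4.60-fold and 2.41-fold. MMP7 and CD44 of that list were lowered, by 4.07-fold and 3.71-fold. Of 28 EGFR and MAPK feedback genes the ligands EREG and BTC were lowered, by 5.00-fold and 3.43-fold, and 0 were raised. With normexp TGFBI and CCN2 stood at log2 differences of 2.48 and 3.17 in place of 5.03 and 5.01, NKD1 at 1.06 and BTC at -0.98. EREG stood at 5.20 on mock and at 2.93, 2.89 and 2.81.

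Genes of other tissues were raised more often than lowered, but a gene below -1 on mock could not be counted as lowered. Of 41 endothelial, blood and muscle genes 12 were raised (29.3%) and 2 were lowered. The median level of these 41 genes on mock was -2.07. CNN1, MYOD1 and TYROBP were 23.4, 19.1 and 14.5-fold higher, and the globins HBG1 and HBE1 were 3.44-fold and 2.69-fold lower. With normexp CNN1, MYOD1 and TYROBP stood at log2 differences of 2.74, 1.82 and 2.57 in place of 4.55, 4.26 and 3.86. The defining leukocyte marker PTPRC had a difference of -0.25 and CD3E was not well above background on mock. Of the 5 leukocyte markers CD14 and TYROBP were raised, and the summed log2 level of the list was 3.75 on mock and from 3.99 to 4.06 with the drugs. The summed level of 4 fibroblast markers was 1.03 on mock and from 1.94 to 2.05 with the drugs with 0 raised, and that of 3 endothelial markers was -0.98 and from 1.26 to 1.28 with VWF raised. The part of other cells in these results was not tested.

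Of 39 neuronal genes 10 were raised (25.6%) and 5 were lowered (12.8%). The median level of this list on mock was -4.14, below the -1 that a lowered gene needs. Besides UCHL1, NEFH, STMN2 and NPTX2 were at least 359, 102 and 47.6-fold higher. VGF, a secreted peptide precursor, stood at 6.71 on mock and at 4.58, 4.66 and 4.56, 4.32-fold lower, and SYT1, SCG2 and STMN3 were 3.51, 3.50 and 2.68-fold lower. Of 50 intestinal differentiation genes 4 were raised, the endocrine granin CHGA by at least 29.8-fold, TFF3 by at least 66.4-fold, TFF2 by 51.2-fold and LGALS4 by 5.58-fold, and ANXA10 was lowered. Of 39 HOX genes HOXD13, HOXD1 and HOXB2 were raised (7.69%) and 5 were lowered (12.8%), beside 5.45% and 5.21% of all named genes. HOXD13 and HOXD1 were at least 14.8 and 19.2-fold higher, and HOXA9, HOXA11, HOXA6 and HOXB5 were 2.53, 2.44, 2.35 and 2.34-fold lower. The 2 probes of HOXB2 differed by -0.16 and 3.17. With normexp SCG2, HOXA11, HOXA6, TFF2 and LGALS4 stood at -1.06, -0.90, -0.81, 3.46 and 0.98.

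The brightest raised genes had smaller changes. SNAR-H, SNAR-G2 and SNAR-F, small noncoding RNAs in near-identical copies, stood 2.54, 2.36 and 3.45-fold above mock, and the tubulin TUBB6 was 3.06-fold above it. LEPR and BBS5 were 3.23-fold and 4.53-fold higher on their brightest probes. Their other probes differed, with LEPR from -0.62 to 1.69 and BBS5 from 0.47 to 2.18. Over the mean of its probes LEPR lay at -0.12, below mock. Among raised genes not above background on mock, PNMA6E, EZHIP and OOEP were at least 2039, 725 and 716-fold higher.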

How the data were processed

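Expression was measured in HML58-3 cells on 4 one-colour arrays, 1 each for mock, DAC, OR-2003 and OR-2100. The scanner files that the authors deposited hold spot intensity, background-subtracted and detrended by the software (Feature Extraction 12.1.0.3) and not normalized between arrays. Their series table holds the same values. Each array had 60901 gene spots for 58201 probes. Spots marked as outliers, 52 to 98 an array, were left out, log2 intensity was averaged over the spots of a probe, and each array was shifted so that the 75th percentile over its gene probes became 0. From 31601 to 33282 probes an array were well above background, and none was saturated. The RefSeq gene table named 34892 probes, and some symbols of older designs may be missed. The probe with the highest mean over the arrays stood for its gene. With 1 array a group no test was run, and counts of genes past a fold and a level are given. The rule was tested on simulated data with planted changes. Noise was drawn from the spread over the drugs, and none was put on mock. Differences between dishes of mock were therefore not covered by it.

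The genes named are the 15 largest rises and falls among genes measured on all arrays, the 10 brightest in each direction, the 10 brightest that were not above background on the other side, up to 4 in each direction in each of 48 function lists or the member nearest the list median, UCHL1, SFRP1, DNMT1, OSR2, GAPDH and ACTB, and the genes whose promoter is printed. The promoters of UCHL1, MX1, ISG15, CHAC1 and AARS1, and other list members, were chosen after their values were seen. The lists, written from general knowledge, the rules and the comparison were chosen with earlier results of these data known. A few genes that the rule names are not reported here. The lists hold 1599 genes of the array. Promoters and chromosomes are those of RefSeq on GRCh38.p14.

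The alternatives were normexp with an offset of 50 (on the median intensity), quantile normalization, median scaling, the 75th percentile of bright probes, a floor at the background limit, the series table, marked spots kept, averaging a gene's probes, a 4-fold threshold, no level threshold, a level of 0, the mean over the drugs, genes measured on all arrays, and leaving out each drug. Python 3.11.15, numpy 2.4.6, pandas 2.3.3, matplotlib 3.10.9, R 4.3.3 and limma 3.58.1 were used.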

Additional observations from a re-analysis of the deposited data

Results flagged for a closer look

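Probes without a gene name in the table used here stand outside the comparison by gene. Of 23308 such probes, 264 were raised by all 3 drugs (1.13%) and 313 were lowered (1.34%), by the same thresholds, and 86 of the raised ones did not stand above background on mock. Those measured on all 4 arrays numbered 6649 and had a median log2 difference of -0.28. The largest rise among them, at -3.87 on mock and 7.89, 7.86 and 7.86 with the drugs, was a log2 difference of 11.74, larger than any of a named gene measured on all arrays, and the largest fall was -4.34. They were picked out because they carry signal that the gene counts leave out.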

How the results depend on the processing

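With 1 array a condition, no difference from mock has a replicate check, and dim genes are limited by their signal over background. No paired analysis was possible because every group holds a single array. Of 160 alternative values of the main counts, 143 stayed within 1.5 times of the main one or, for promoter CpG, within 1 SD over genes. That share says little about stability, because several settings could hardly move a count. The series table holds the same values as the scanner files. With the floor, or with marked spots kept, all 2666 calls stayed. Leaving out a drug asks the fold of fewer drugs. Raised genes numbered 2592 with median scaling, 776 with the percentile of bright probes, 818 with a 4-fold threshold and 2957 with no level threshold. Lowered genes numbered 806 with normexp and, under the other 4 settings in the same order, 2365, 502, 139 and 1982. Under 4-fold the listed genes called fell to 186, with 13 stress response and 4 histone genes lowered, and 14 interferon-stimulated and 4 NF-kappaB genes raised. Counting only genes measured on all arrays left 18 cancer-testis and 6 germline genes raised, since most were not above background on mock, and the percentile of bright probes left 13 germline genes. At that percentile the level threshold of -1 is stricter. With median scaling the same threshold is much looser, since the 75th percentile of the arrays then stands at 3.41 to 3.63 and not at 0. Leaving out 1 drug gave from 1376 to 1406 raised and from 1356 to 1400 lowered genes.

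Of the 220 named genes that were called, LEPR alone changed sign, to -0.12 with the mean of its probes, and 192 kept their call under normexp, 147 with the percentile of bright probes and 126 with a 4-fold threshold. Normexp moved the median of the 128 named raised genes from 5.15 to 2.24 and that of the 92 lowered ones from -1.60 to -1.35. The cause of these shifts was not tested.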

Other observations

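Genes were also grouped by the letters that open their symbol, after their values had been seen, keeping groups with at least 8 members measured on all 4 arrays. Intraflagellar transport genes, which carry cargo along cilia, had the lowest median log2 difference of these groups, -1.04, and 7 of 20 were lowered with 0 raised. IFT140 stood at 1.10 on mock and at -1.60, -1.64 and -1.47 with the drugs, 6.36-fold lower. IFT172 was at 3.13 on mock and at 1.72, 1.70 and 1.64. In both the drug arrays lay together, below mock. IFT20, IFT25 and IFT56 lay above mock, at 0.55, 0.58 and 0.90.

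Tubulins lay at the other end. Of 10 genes with TUBB symbols 6 were raised and 0 were lowered, with a median difference of 1.32, and of 8 with TUBA symbols 3 were raised. TUBB2A, a subunit of neuronal microtubules, was at 5.40 on mock and at 7.69, 7.77 and 7.76, 5.07-fold higher. TUBA3D was at 0.88 on mock and at 5.60, 5.78 and 5.55, 27.2-fold higher, and TUBB2B was at least 87.3-fold higher. TUBB itself, a housekeeping member, stood at -0.22, or at 0.74 with normexp, and its 3 probes ran from -0.22 to 0.69. Tubulin genes resemble each other closely, which leaves single values uncertain.

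Metallothioneins, which bind zinc and copper, had a median difference of -1.02, and 3 of 15 were lowered, MT1E, MT1M and MT1HL1. MT1G and MT1H lay above mock, and MT1G was raised. MT1H was at least 5.58-fold higher, below the level needed for a call. MT1G was at -5.15 on mock, not above background, and at 1.69, 1.98 and 1.84 with the drugs, at least 69.7-fold higher. The snoRNA host genes GAS5 and SNHG8 were lowered, by 2.40-fold and 2.56-fold, and SNHG27 was at least 44.4-fold higher.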
